A study of Danio rerio with 56 samples.

Results

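In whole zebrafish sampled from 2 to 64 d, 7 of 32520 genes were well expressed at 2 d and close to 0 at every later age. They are the hatching enzyme genes he1.1 and he1.2, the gene ctslb.4 and 3 of its neighbours in a run of cathepsin L genes (zgc:174153, zgc:174855 and si:dkey-239j18.3), and 1 of 3 genes named DAO. They were chosen from the read counts themselves, as genes with a mean of at least 20 counts-per-million units (CPM, reads scaled to the library total) over the 2 d libraries and below 1 CPM over the libraries of each of 8, 16, 32 and 64 d. Of the 32520 genes, 6962 met the first condition and 10506 the second. Haemoglobin and hox genes were to be excluded by symbol, and 0 genes were removed in this way. The fall from 2 d to the later ages is therefore the way these genes were found, and it is described here without a test.

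The study followed AB strain zebrafish through sex development under 4 continuous water treatments. Control fish received the solvent DMSO, which every other group received as well. The second group received exemestane (EM, 10 µg/L), which blocks aromatase and so the conversion of androgens to oestrogens, the third received the oestrogen 17β-estradiol (E2, 100 ng/L), and the last received EM and E2 together at those doses (EM+E2). Each library holds polyadenylated RNA of 25 pooled whole fish, so differences between single fish are averaged within a pool, and because the labels do not say whether pools came from separate dishes or spawnings, p-values speak only to the spread from library to library. At 2 d the values rest on 2 DMSO, 3 EM, 2 E2 and 2 EM+E2 libraries, and at the later ages on 2 or 3 per treatment, 44 libraries in all.

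Zebrafish hatch by dissolving the egg envelope from inside. The hatching gland, a group of cells that lies over the yolk and is lost in the days after hatching, stores proteases in granules and releases them. The he1 genes encode astacin-type metalloproteases of this gland, the hatching enzymes themselves. Cathepsin L is a cysteine protease, and ctslb, the best known gene of the run that holds ctslb.4, carries the older name hgg1, for hatching gland gene. DAO encodes D-amino acid oxidase, a peroxisomal enzyme that breaks down D-amino acids and is best known from kidney, liver and brain of mammals. In pooled whole fish, fewer cells of a type and less RNA per cell cannot be told apart.

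The 53 libraries used held 4039030 to 10144213 counted reads (median 9107574). At 2 d the column of EM+E2 replicate 2 holds the same counts for each of 32520 genes as a 16 d column (EM+E2 replicate 3), and it was left out. The libraries labelled E2 2 d replicate 1 and E2 16 d replicate 1 were left out too. Their levels correlated at a Spearman rho of 0.985 with each other, and that of the former at 0.576 to 0.843 with the 2 d libraries used. With these 2 put back, the same 7 genes met both thresholds.

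The 9 libraries used at 2 d fall into 2 sets that cut across DMSO, EM and E2, while both EM+E2 libraries lie in 1 set. Over 13061 genes, the 7 left out, Spearman correlations were 0.917 to 0.975 within the sets and 0.683 to 0.765 between them. One set has 5 libraries, DMSO replicate 2, EM replicate 3, E2 replicate 3 and EM+E2 replicates 1 and 3. The other has 4, DMSO replicate 1, EM replicates 1 and 2 and E2 replicate 2. These sets come from the data and are no groups of the study. All 9 libraries are labelled whole body, but the 4 libraries hold 215 to 456 CPM in 12 apolipoprotein genes together, against 17568 to 19595 CPM in the 5, and each of the 12 genes was lower in all 4. Skeletal muscle genes summed to 11548 to 20550 CPM in the 4 libraries and 39580 to 64951 CPM in the 5, with 8 of 13 fully apart. Skin genes summed to 1065 to 3185 CPM in the 4 and 3311 to 7861 CPM in the 5, with 4 of 10 fully apart. Neuronal genes went the other way, at 3446 to 4386 against 2049 to 3480 CPM, with 5 of 10 higher and 1 lower in all 4. What part these differences have in the levels given next was not tested.

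Of the 7 genes, the hatching enzyme gene he1.1 (ENSDARG00000023656) had the highest mean CPM at 2 d in the counts, 211 ± 208 (SD, n = 9). It was at 54.3 and 324 CPM in the DMSO libraries (replicates 1 and 2), at 22.1, 104 and 664 CPM in the EM libraries (replicates 1, 2 and 3), at 63.0 and 78.0 CPM in the E2 libraries (replicates 2 and 3) and at 330.0 and 256 CPM in the EM+E2 libraries (replicates 1 and 3). EM replicate 3 was the highest and EM replicate 1 the lowest, so the libraries of 1 treatment spanned the whole range, and the ranges of DMSO and EM overlapped those of the other treatments. The second hatching enzyme gene, he1.2 (ENSDARG00000019122), had a mean of 25.7 ± 17.9 CPM. In the same order it was at 13.7 and 34.9 CPM in DMSO, 10.1, 34.1 and 65.2 CPM in EM, 9.78 and 11.1 CPM in E2 and 27.7 and 24.9 CPM in EM+E2. It again had its highest value in EM replicate 3. Both E2 values lay below the DMSO and EM+E2 values, and EM replicate 1 lay between the E2 values. For both hatching enzymes the 4 libraries and the 5 overlapped, with he1.1 at 22.1 to 104 CPM in the 4 and 78.0 to 664 CPM in the 5, and he1.2 at 9.78 to 34.1 and 11.1 to 65.2 CPM.

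The 4 members in the cathepsin L run put the 5 libraries of the larger set in 1 order, from EM replicate 3 through DMSO replicate 2, EM+E2 replicate 1 and EM+E2 replicate 3 to E2 replicate 3. The gene zgc:174153 (ENSDARG00000079376), which RefSeq also lists under the name ctsl, had a mean of 155 ± 225 CPM at 2 d, with 9.75 and 222 CPM in DMSO, 6.78, 28.7 and 715 CPM in EM, 18.05 and 70.3 CPM in E2 and 183 and 137 CPM in EM+E2. EM replicate 3 stood highest by a wide margin and EM replicate 1 lowest, as for he1.1. The gene ctslb.4 (ENSDARG00000100833) had a mean of 49.3 ± 67.9 CPM, with 4.30 and 76.1 CPM in DMSO, 1.85, 7.82 and 212 CPM in EM, 4.78 and 17.2 CPM in E2 and 73.9 and 45.3 CPM in EM+E2. A further gene with the alternative name ctsl, zgc:174855 (ENSDARG00000094559), had a mean of 35.2 ± 53.7 CPM, with 3.25 and 55.4 CPM in DMSO, 1.60, 6.54 and 171 CPM in EM, 6.74 and 14.1 CPM in E2 and 32.9 and 25.5 CPM in EM+E2. The clone-named gene si:dkey-239j18.3 (ENSDARG00000089806) had a mean of 25.6 ± 40.3 CPM, with 1.63 and 37.6 CPM in DMSO, 0.493, 2.28 and 128 CPM in EM, 1.52 and 16.0 CPM in E2 and 24.7 and 19.0 CPM in EM+E2. In each of these 4 genes all 4 libraries of the smaller set lay below all 5 of the other, and the library next above the gap was E2 replicate 3.

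The remaining gene is DAO (ENSDARG00000035602), with a mean of 67.9 ± 65.8 CPM. It was at 5.22 and 66.5 CPM in DMSO, 7.40, 6.40 and 165 CPM in EM, 1.52 and 91.0 CPM in E2 and 127 and 142 CPM in EM+E2. Its values fell into the same 2 sets, 1.52 to 7.40 CPM in the 4 libraries and 66.5 to 165 CPM in the 5, with no overlap. Within the 5 libraries its order differed from that of the proteases: E2 replicate 3, the lowest of the 5 for all 6 protease genes, was above DMSO replicate 2 for DAO.

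**Figure D1:**
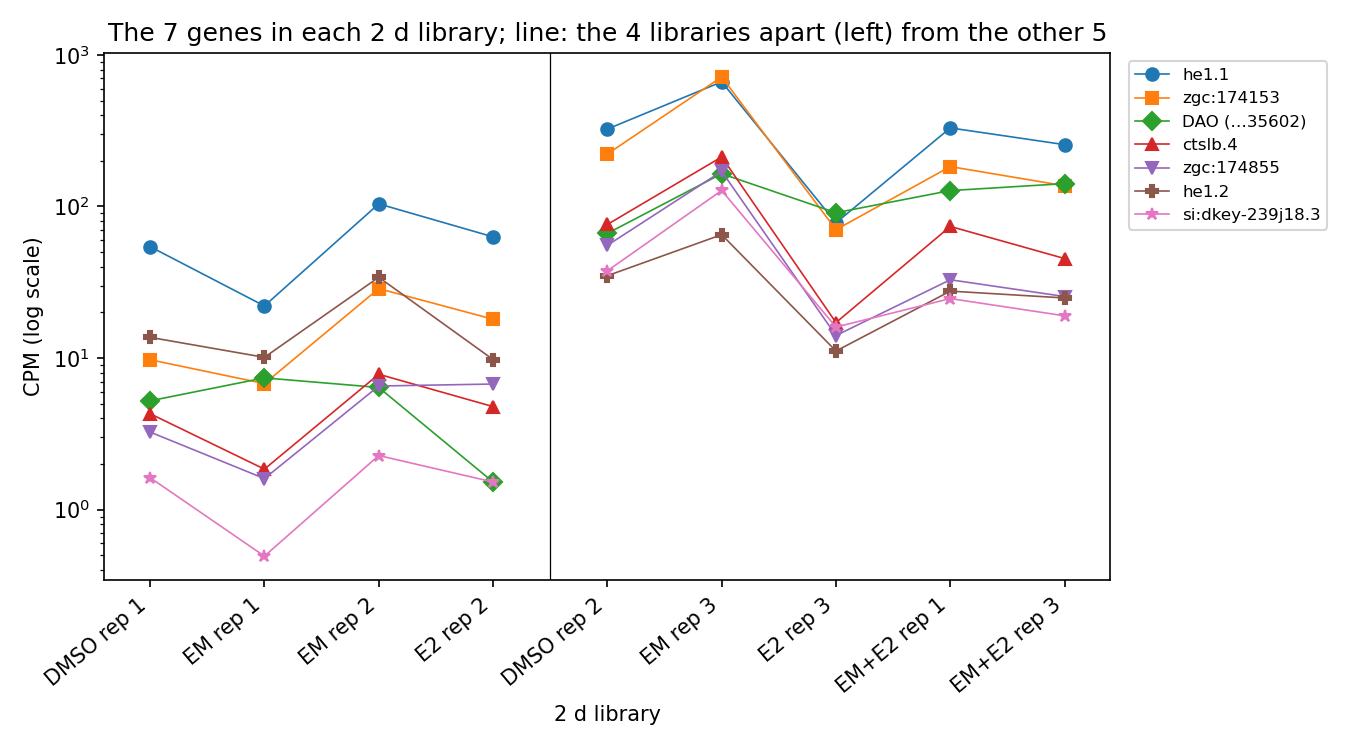
CPM (log scale) of the 7 genes in each of the 9 libraries at 2 d, with lines joining the libraries of a set for each gene. The 4 libraries left of the vertical line lie below the 5 on the right for 5 genes, while he1.1 and he1.2 overlap, he1.2 with 34.1 CPM in EM replicate 2.

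Summed over the 7 genes, the 4 libraries held 50.3 to 190.0 CPM and the 5 libraries 298 to 2120 CPM. Of the 7 genes, 5 were lower in each of the 4 libraries than in each of the 5, the 4 cathepsin L genes and DAO. Of the 6962 genes at 20 CPM or more at 2 d, 1980 (28.4 percent) were lower in this way and 1469 (21.1 percent) higher. The choice of the genes bears on this count, and nothing is read from it. The genes ctslb.4, zgc:174855, si:dkey-239j18.3 and DAO were below 20 CPM in each of the 4 libraries and reached a mean of 20 CPM only through the 5. Within the 4, zgc:174153 and he1.2 reached 20 CPM only in EM replicate 2 (28.7 and 34.1 CPM). Their means over the 4 were below 20 CPM too, so of the 7 only he1.1 met that condition within the 4. The makeup of the sum differed as well: he1.1 and he1.2 together made 64.0 to 73.8 percent of it in the 4 libraries and 29.95 to 44.7 percent in the 5. In the authors' normalized table, whose values differ gene by gene from the counts, those shares were 61.0 to 65.4 and 16.0 to 22.9 percent. The choice of the genes bears on these shares too. The part of the apolipoprotein, muscle and skin differences in this division was not tested.

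After 2 d few reads of these genes were found, and for each of the 7 the lowest of the 9 libraries at 2 d lay above the highest of the 44 later libraries. Both sides of this comparison were used to choose the genes, so nothing is read from it. The share of all genes set apart in this way is not given here. All 7 genes together had 86 reads at 8 d among 107027399 counts of 12 libraries, 40 at 16 d (11 libraries), 65 at 32 d (12 libraries) and 94 at 64 d (9 libraries). At 2 d each of the 7 had reads in all 9 libraries, and he1.1 alone had 16949. In a single library the median summed level was 0.563 CPM at 8 d, 0.329 CPM at 16 d, 0.677 CPM at 32 d and 1.097 CPM at 64 d, against 298 CPM at 2 d.

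The hatching enzymes were found in scattered later libraries. The gene he1.1 had 28 reads in 20 of the 44 later libraries, and its highest single value was 0.425 CPM (DMSO 64 d replicate 2). Its level at 2 d was 7516 times its pooled level at 8 d, with a 95% exact counting interval of 2572 to 36445 for the 3 reads found there. For he1.2, 8 later reads were found in 6 libraries, with at most 0.222 CPM, and the ratio of 2 d to 8 d was 1377 (381 to 11369, from 2 reads). Those reads lay in DMSO 8 d replicates 1 and 3, and without one or the other the ratio was 2532 or 2539. Such intervals cover the counting of the later reads only, not the spread between libraries.

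Of the cathepsin L genes, ctslb.4 and si:dkey-239j18.3 had 4 and 3 reads in all 44 later libraries. At 16 d ctslb.4 had no read in 11 libraries and was at least 1511-fold lower than at 2 d, a bound set by 3 reads over the group. The gene si:dkey-239j18.3 had no read in the 12 libraries of 8 d and was at least 915-fold lower there, by the same bound. EM 2 d replicate 3 carries much of these 2 d means, and without it the bounds were 886-fold and 460-fold. The other 2 kept a trace: zgc:174153 had 67 later reads in 28 libraries, 33 of them at 8 d, with a highest value of 1.07 CPM in E2 8 d replicate 3. For zgc:174855 there were 30 later reads in 14 libraries, 18 of them at 8 d, and a highest value of 0.983 CPM in E2 8 d replicate 2. Both had their highest mean of the later ages at 8 d, 0.309 ± 0.284 and 0.173 ± 0.280 CPM (n = 12).

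DAO kept the most reads and came nearest to the limit of 1 CPM. It had 145 later reads in 35 of 44 libraries. Its level was 0.265 ± 0.267 CPM at 8 d (n = 12), 0.211 ± 0.273 at 16 d (n = 11), 0.467 ± 0.342 at 32 d (n = 12) and 0.648 ± 0.262 at 64 d (n = 9), where all 9 libraries had a read. The mean at 64 d was above that at 8 and 16 d, and the libraries of the 4 ages overlapped. The 2 d level was 260 times that at 8 d (interval 180 to 391) and 105 times that at 64 d (80.4 to 139), the smallest ratio of the 7 genes at 64 d. At 8 d the ratio of zgc:174855 was 209 (132 to 353), but 108 without EM 2 d replicate 3 and 348 without E2 8 d replicate 2.

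**Figure D2:**
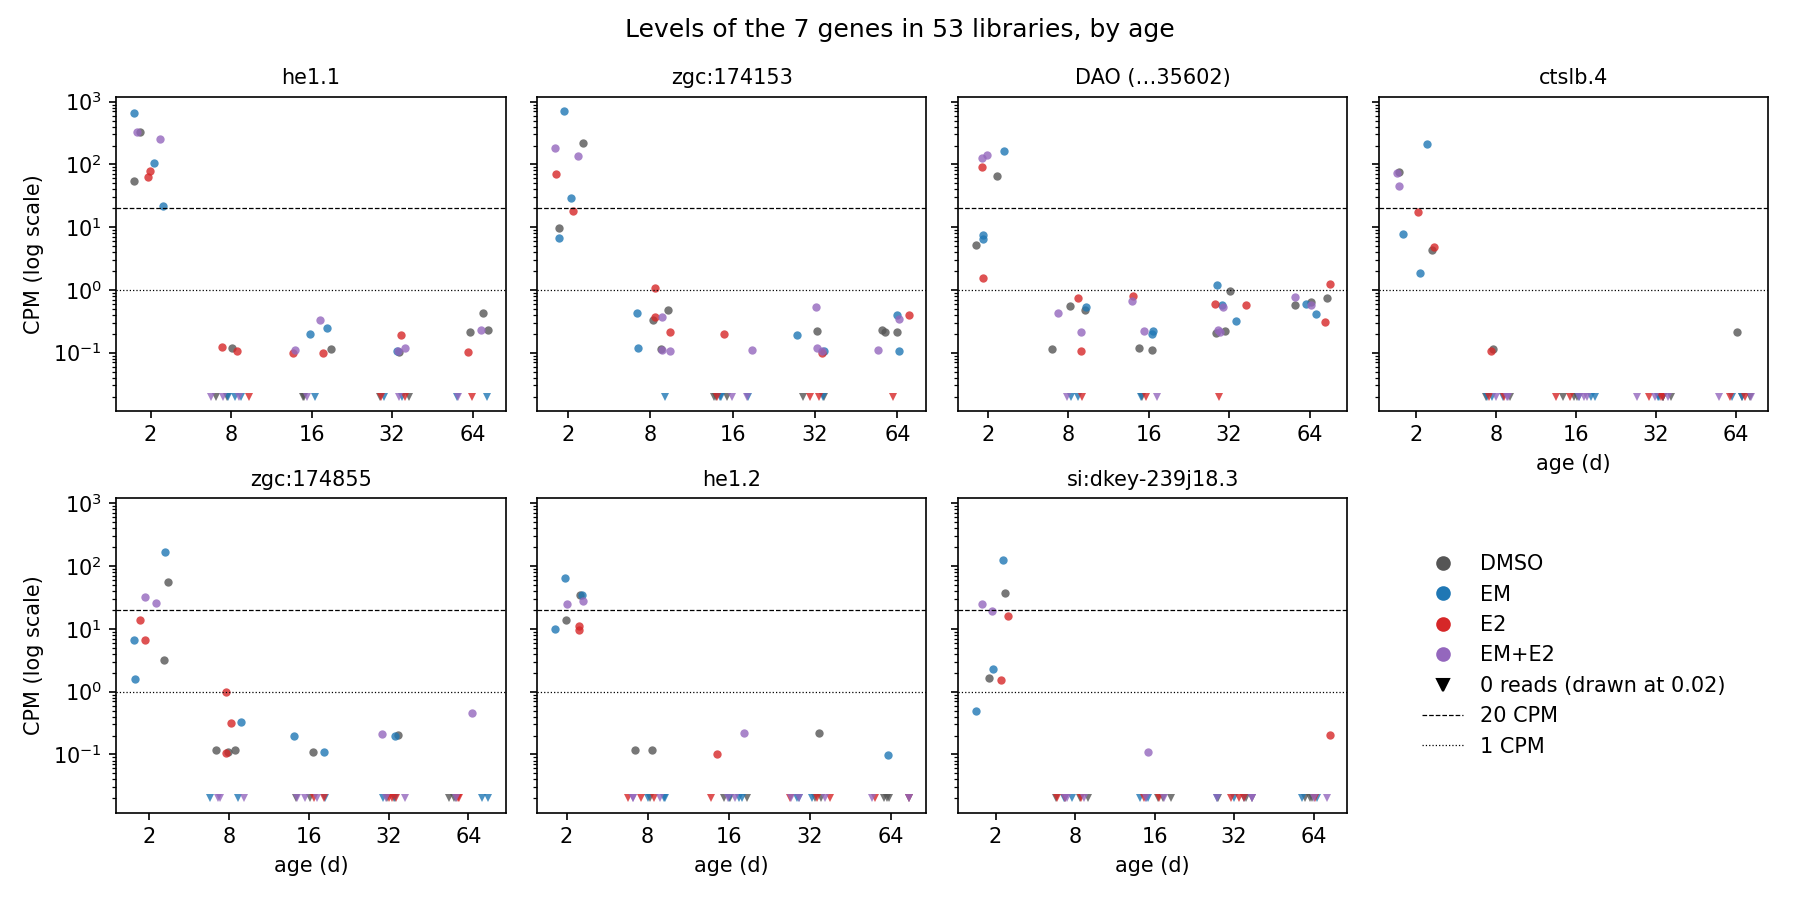
CPM (log scale) of each of the 7 genes by age, 1 point per library, coloured by treatment, with triangles for libraries with no read. All 9 points at 2 d lie above every later point for he1.1, he1.2, ctslb.4, zgc:174153, zgc:174855, si:dkey-239j18.3 and DAO, and DAO has reads in 35 of the 44 later libraries. The genes were chosen as high at 2 d and low later.

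Close to the thresholds, the members just above 20 CPM at 2 d were si:dkey-239j18.3 (25.6), he1.2 (25.7) and zgc:174855 (35.2). The genes that met the later condition and lay just below 20 CPM were si:ch73-166c6.2 at 17.9, HES2 (ENSDARG00000074897), a repressor gene of the hairy family, at 17.3, and ctslb at 15.5 CPM. On the other side, the members nearest to 1 CPM at their highest later age were DAO at 0.648, zgc:174153 at 0.309 and zgc:174855 at 0.173 CPM. Those just outside were zgc:112964 at 1.12, the chondroadherin-like gene chadla at 1.36 and the cytochrome P450 gene cyp2aa8 at 1.39 CPM. Without EM 2 d replicate 3, si:dkey-239j18.3 and zgc:174855 fell under 20 CPM and 5 genes were left, so that library decided 2 of the 7.

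Among the libraries labelled 2 d, 2 played no part in choosing the genes, and they differ. The one labelled E2 2 d replicate 1 held 1.13 CPM of the 7 genes together in the count table, and 2 reads each of ctslb.4 and zgc:174855 and 0 of the other 5 in the authors' normalized table. The other, EM+E2 2 d replicate 2, a copy in the count table, has values of its own in the authors' normalized table, equal to 8140968 recovered reads. With each column rescaled to its total, as for CPM, all 7 genes were above 20: he1.1 at 76.5, he1.2 at 30.3, zgc:174153 at 99.6, ctslb.4 at 93.1, zgc:174855 at 39.1, si:dkey-239j18.3 at 25.1 and DAO at 181. These rest on 204 (si:dkey-239j18.3) to 1476 (DAO) reads. Each value was above all 12 libraries of 8 d in that table, whose highest was 0.685, for DAO. The choice of the genes had required those 8 d samples to have a mean below 1 CPM, so their low side was set in advance. The share of all genes with such values is not given here. In 6 of the 7 genes the level in EM+E2 2 d replicate 2 lay within the range of the 5 libraries above, and for DAO it was higher than their highest, 162. Over those of the 13061 genes that the normalized table also holds, this library correlated at a Spearman rho of 0.962 to 0.978 with those 5 libraries and at 0.740 to 0.794 with the 4.

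**Figure D3:**
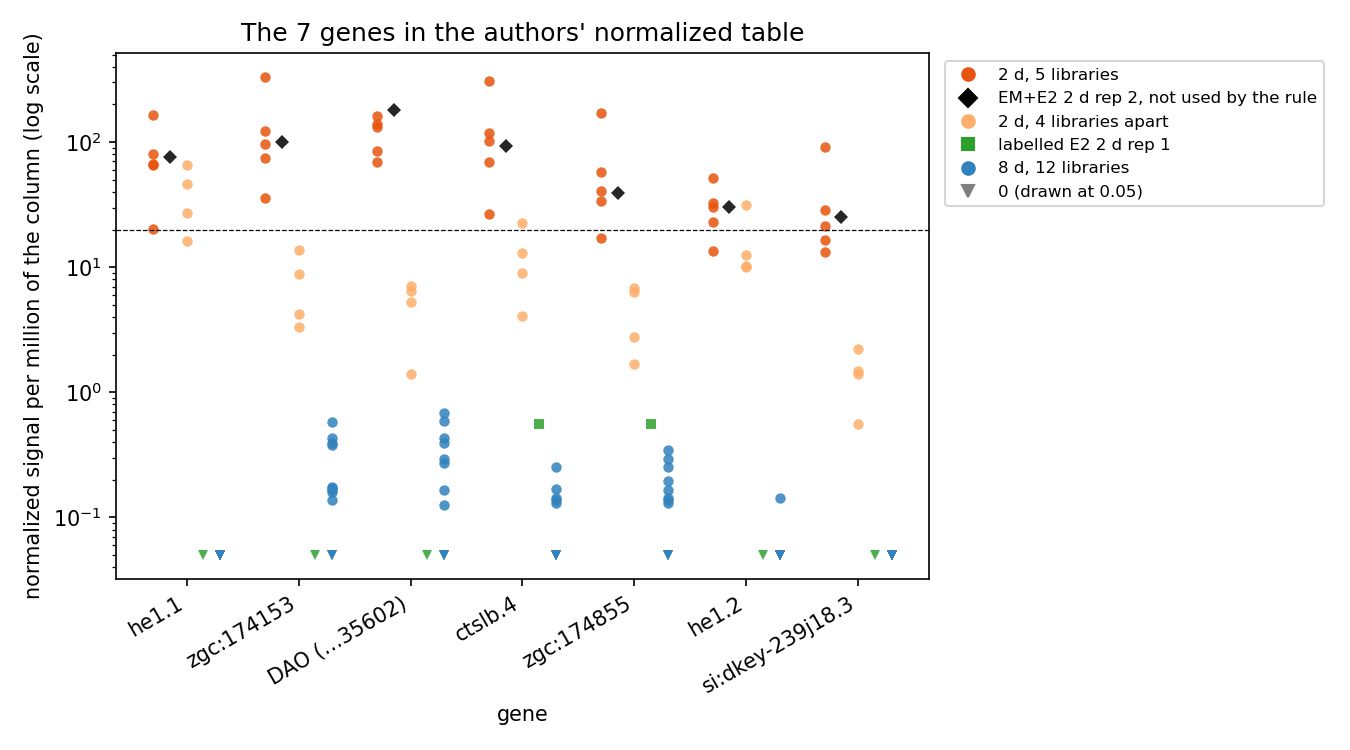
Normalized signal rescaled to the column's total as for CPM (log scale) of the 7 genes in the authors' normalized table, with libraries of 2 d, 8 d and the labelled E2 2 d replicate 1 side by side. The black diamonds mark EM+E2 2 d replicate 2, not used to choose the genes, which is above 20 for all 7 and above every 8 d library, while the library labelled E2 2 d replicate 1 has reads of 2 of the 7. The 8 d samples were used to choose the genes, as low.

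The 2 tables also differ in the levels of single genes. Over the 5 libraries of the larger set at 2 d, the ratio of the raw level to the rescaled normalized level was taken. Its median was 4.00 for he1.1 (3.85 to 5.001), 1.90 for zgc:174153 and 0.652 for ctslb.4, against 1.015 for DAO. For zgc:174855, he1.2 and si:dkey-239j18.3 it was 0.827, 1.15 and 1.204. The 4 other libraries differed from this for he1.1. DMSO replicate 1, EM replicates 1 and 2 and E2 replicate 2 held 54.3, 22.1, 104 and 63.0 CPM of he1.1 in the counts. In the normalized table they were at 27.2, 16.2, 66.0 and 45.9, so the ratio was smaller there. The he1 genes and the cathepsin L genes lie among close copies. In EM replicate 3, he1.1, he1.2 and he1.3 were at 664, 65.2 and 0.775 CPM in the counts. The normalized table had them at 166, 51.6 and 0.530 in that library. Why the tables differ was not tested, and the levels of single genes are uncertain to that extent.

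In the RefSeq annotation of the assembly GRCz12tu, used here only for names and order, 4 of the members lie in a single run from ctslb.4 to zgc:174153. This run has 21 genes, 17 of them protein-coding, and 10 were measured. The 6 that did not meet the rule were below 20 CPM at 2 d and near 0 later. The gene ctslb was at 15.5 ± 19.6 CPM at 2 d (7.27 to 57.0 in the 5 libraries, 0.217 to 1.42 in the 4), with 4 reads at 8 d, 0 at 16 and 32 d and 5 at 64 d. Next came si:dkey-26g8.5 at 12.8 ± 17.5, si:dkey-269i1.4 at 8.93 ± 9.46 and zgc:174154 at 5.86 ± 7.69 CPM, and the last 2 were si:dkey-239j18.2 at 1.75 ± 3.21 and si:dkey-26g8.4 at 0.334 ± 0.537 CPM. The highest mean of the 6 at a later age was 0.137 ± 0.158 CPM, for si:dkey-26g8.5 at 8 d. Lower in all 4 libraries than in all 5 were ctslb, zgc:174154 and si:dkey-26g8.5. The share of all genes below 20 CPM set apart in this way is not given here, so nothing is read from this. Each of the 6 had its highest 2 d value in EM replicate 3 except si:dkey-26g8.4, which had it in DMSO replicate 2.

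The 3 he1 genes form a run of their own between aox5 and bzw1a. The gene at its end, he1.3, had 13 reads at 2 d, all of them in the 5 libraries, and a mean of 0.159 ± 0.249 CPM. It did not share the level of he1.1 and he1.2, and at the later ages it had 10 reads in all.

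**Figure D4:**
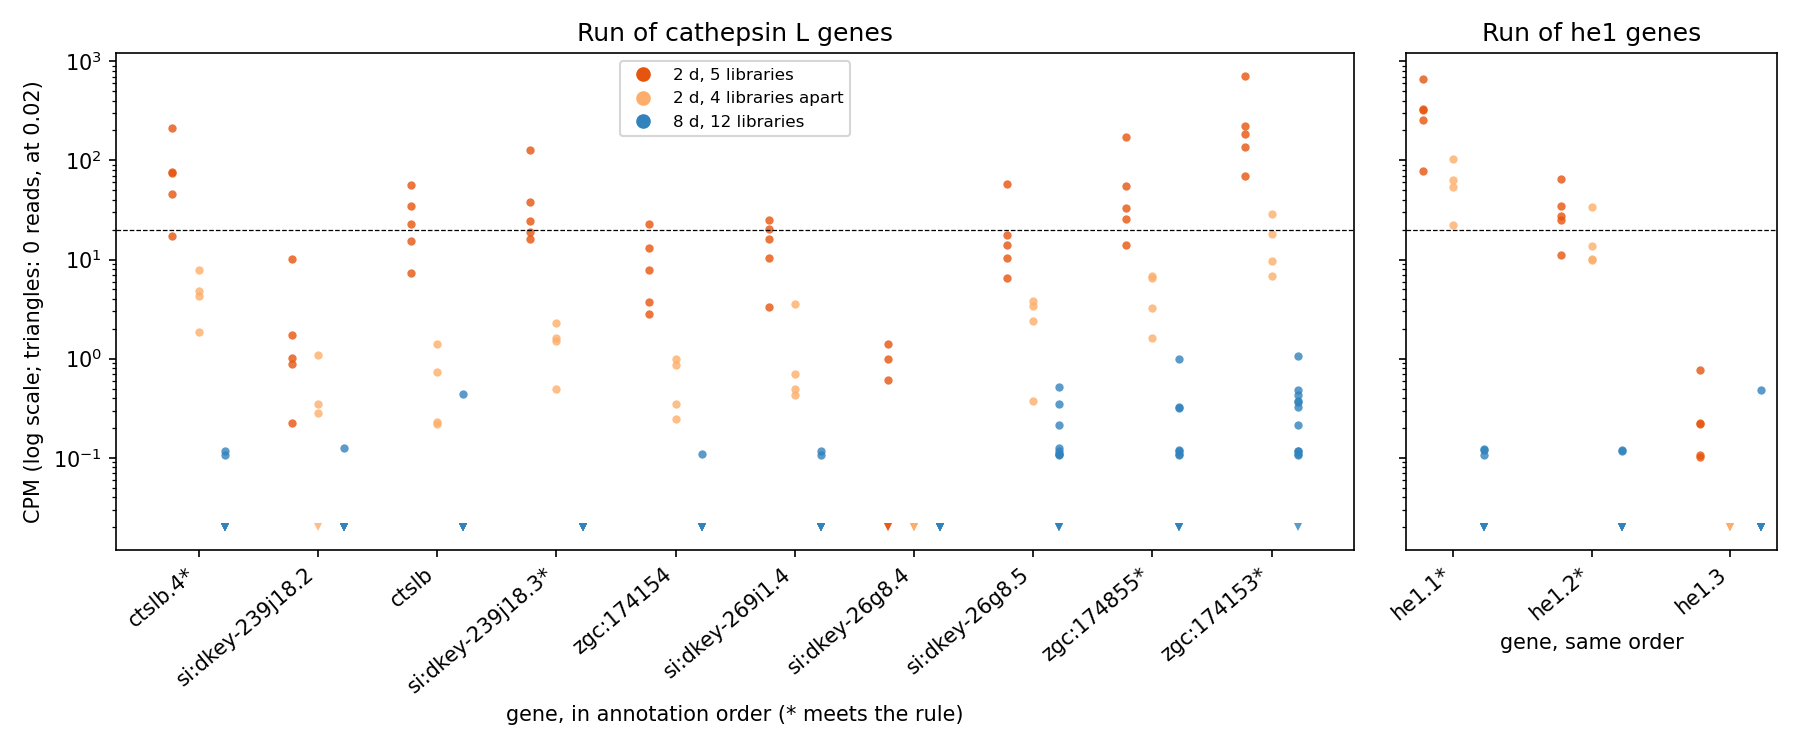
CPM (log scale) of the measured genes of the cathepsin L run and the he1 run in annotation order, 1 point per library, for the 5 and the 4 libraries of 2 d and the 12 of 8 d. In the cathepsin L run the highest value of each gene is in 1 of the 5 libraries, which range from 70.3 to 715 CPM in zgc:174153 down to at most 1.39 CPM in si:dkey-26g8.4, and he1.3 stays below 1 CPM.

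Genes with the name DAO differed in course. The member fell to below 1 CPM, while ENSDARG00000035603, at 9.37 ± 7.97 CPM at 2 d, was at 23.0 ± 9.74 CPM at 8 d (edgeR's quasi-likelihood test, log2 fold change 1.51, adjusted p 0.00213) and at 30.2 ± 7.32, 27.6 ± 6.88 and 19.6 ± 3.25 CPM at 16, 32 and 64 d. The other, ENSDARG00000035601, was at 0.599 ± 0.682 CPM at 2 d and 0.240 ± 0.258 CPM at 8 d, and then at 0.956 ± 0.567, 5.09 ± 2.44 and 12.4 ± 5.56 CPM at 16, 32 and 64 d. Its 64 d libraries, at 7.12 CPM or more, lay above all of 16 d, at 0.218 to 2.09 CPM. Of the 3 genes only the member had its highest mean at 2 d.

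Whether EM or E2 altered the genes at 2 d was tested across 19476 genes with edgeR's quasi-likelihood test and Benjamini-Hochberg adjustment. None of the 7 passed an adjusted p under 0.05 in any of 4 comparisons. In EM against DMSO (n = 3 and 2) their log2 fold changes were 0.51 (he1.1) to 1.18 (si:dkey-239j18.3), all on the higher side, with standard errors of 0.65 to 1.96. In E2 against DMSO (n = 2 and 2) they were -1.93 (ctslb.4) to 0.18 (DAO), 6 of 7 on the lower side. In EM+E2 against DMSO (n = 2 and 2) they were 0.02 (zgc:174855) to 1.92 (DAO, SE 1.89), and in EM+E2 against EM -1.04 (zgc:174855) to 1.16 (DAO). The lowest adjusted p of the 7 was 1.0, 1.0, 0.975 and 0.767 in turn.

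The share of all tested genes that passed was 0 percent in EM and in E2 against DMSO, with 261 and 193 genes at an unadjusted p under 0.05, and DESeq2 called 0 and 4. It was 0.0103 percent in EM+E2 against DMSO and in EM+E2 against EM, the same 2 genes each time, both lower. For these 2 comparisons DESeq2 called 24 and 113 genes, and the fit on recovered reads 0 and 0. Among the 2 genes was pdap1a, at 0.612 and 0.439 CPM in EM+E2 against 93.0 to 181 CPM in the other 7 libraries, named here after its values were seen. With the library set as a term in the fit, again 0 of the 7 genes passed in each comparison. In that fit their log2 fold changes were -1.01 to 0.68 in EM+E2 against DMSO, with 2 of 7 on the higher side. In EM+E2 against EM they were -2.03 to -0.22. Without the 4 libraries DMSO, EM and E2 have 1 library each, the spread comes from the EM+E2 pair alone, and the lone libraries are assumed to vary like that pair. In that fit 7 of the 7 passed in EM against DMSO, beside 3.79 percent of the 19881 genes tested, with log2 fold changes of 0.92 to 1.78. In E2 against DMSO 6 passed, beside 5.43 percent of genes, and the values were -2.31 to 0.30. In EM+E2 against DMSO 3 passed, beside 9.91 percent, with values of -0.87 to 1.07 and 1 of 7 on the higher side. In EM+E2 against EM 6 passed, beside 11.7 percent, and all 7 values were on the lower side, at -2.51 to -0.26, he1.1 and DAO having turned from higher to lower. Each of these calls rests on a single library of DMSO, EM or E2. The only EM library in that fit is EM replicate 3, which had the highest 2 d value of each of the 7 genes. Without it, si:dkey-239j18.3 and zgc:174855 would not have met the rule. The choice of the genes therefore favoured high values in that library. All of the 7 but he1.1 reached a mean of 20 CPM only through the 5 libraries of that fit. For all 4 comparisons, nothing is therefore read from the counts of the 7 beside the shares of all genes.

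Other genes listed for the hatching gland did not all share the course of the 7. The list has 10 genes matched by symbol, he1.1 and he1.2 among them, and 9 were tested between 2 and 8 d (n = 9 and 12), a comparison the choice of members itself used. Across 21587 genes, 12091 (56 percent) passed, of which 5600 fell (25.9 percent) and 6491 rose (30.1 percent), with a median log2 fold change of 0.08. At 8 d, EM+E2 replicate 3 held 816 CPM in the apolipoprotein genes, against 4564 to 12284 CPM in the other 11 libraries. Neuronal genes summed to 5396 CPM in it, against 1791 to 4414 CPM, while skeletal muscle genes lay within the range of the others. Without this library 11995 genes passed. Of the 7 tested genes of the list that are no members, 2 fell and 1 rose, with a median of -0.31. Those that fell were ctslb (log2 fold change -8.79, adjusted p 0.000151) and AGR2, a gene of secretory cells, from 23.9 ± 18.8 to 9.76 ± 4.71 CPM (-1.25, adjusted p 0.0189). The gene ctsl.1 rose from 2.87 ± 2.50 to 315 ± 153 CPM (6.90, adjusted p 2.75e-09). Regulators of the gland did not pass: klf17, a transcription factor gene needed for its formation, was at 15.3 ± 9.19 and 11.3 ± 3.83 CPM (adjusted p 0.35), and XBP1, of the secretory stress response, at 227 ± 76.2 and 181 ± 51.3 CPM (adjusted p 0.133). CD63 and foxa3 had log2 fold changes of -0.12 and 0.10. In the counts CD63 was at 3.06 to 8.86 CPM at 2 d. In the authors' normalized table, rescaled as for CPM, it was at 47.8 to 148 in those libraries and at 88.7 to 186 at 8 d. The fall of he1.1 and he1.2 was set in advance by the choice of the genes. With them included, 4 of the 9 tested genes fell and 1 rose in the counts. The fit on recovered reads had 4 lower and 2 higher.

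Further lists hold genes of embryonic development. Of 34 proneural genes 31 fell from 2 to 8 d and 1 rose, with a median log2 fold change of -2.99. The Delta ligand gene dlb fell from 365 ± 172 to 8.39 ± 3.75 CPM (-5.56, adjusted p 2.30e-10), and the neuronal transcription factor gene EBF2 from 163 ± 64.0 to 4.93 ± 2.11 CPM (-5.10). The gene with the symbol DLD (ENSDARG00000008785) rose from 141 ± 50.3 to 274 ± 46.4 CPM. It was matched to the listed dld without regard to case, and is in the segmentation list too. Whether it is the Delta ligand gene meant by the lists was not checked. Of 31 segmentation genes 19 fell and 3 rose (median -1.29), with HES6, of the hairy and enhancer of split family, from 67.0 ± 20.4 to 3.37 ± 1.33 CPM. Of 67 brain patterning genes 48 fell and 2 rose (median -1.20), with the progenitor gene DBX1 from 63.5 ± 16.9 to 2.70 ± 1.53 CPM. These lists too differ between the library sets: the proneural genes summed to 7408 to 8715 CPM in the 4 libraries and 3798 to 5616 CPM in the 5, and segmentation and brain patterning genes were higher in the 4 as well, at 1488 to 1680 against 967 to 1432 CPM and 3886 to 4956 against 2339 to 3067 CPM. With the library sets as a term in the fit, 12097 genes in all passed between 2 and 8 d, against 12091 without it. The 8 d libraries were coded there with the 5, so that fit set 8 d against the level of the 5. This total over all genes does not show whether the counts of single lists hold. A fit without the 4 libraries left DMSO, EM and E2 with 1 library each at 2 d. Its median log2 fold change over all genes was 0.16, against 0.08 with all libraries. Beyond these fits, the part of the library sets in these changes with age was not tested.

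Of 23 hedgehog genes 18 fell and 1 rose (median -1.14), the signal transducer SMO going from 86.9 ± 22.8 to 22.7 ± 5.90 CPM. Of 37 neural crest and pigment genes 28 fell and 1 rose (median -1.38), with TYRP1 of melanin synthesis from 29.3 ± 15.3 to 2.80 ± 1.36 CPM. Of 33 fin fold genes 25 fell and 0 rose (median -1.52), SP8 of the fin's outer ridge from 50.3 ± 9.58 to 9.32 ± 2.33 CPM. Of 20 notochord genes 14 fell and 0 rose (median -1.84), the matrix gene epyc from 289 ± 86.8 to 66.8 ± 23.2 CPM. Otic and lateral line genes fell in 19 of 28 cases and rose in 2 (median -1.14), and blood and vessel genes fell in 17 of 30 and rose in 2 (median -0.90), SLC4A1 of the red cell membrane from 237 ± 169 to 10.2 ± 7.13 CPM. Of 37 early germ layer genes 18 fell and 5 rose (median -0.76, but -0.37 without E2 2 d replicate 3). Of 30 myogenic genes 10 fell and 7 rose (median -0.39, but 0.17 without E2 2 d replicate 3), among them PAX3 of muscle progenitors from 13.0 ± 6.17 to 2.68 ± 0.710 CPM and the muscle methyltransferase gene SMYD1 from 107 ± 45.4 to 283 ± 48.2 CPM. With only the DMSO groups compared (n = 2 and 3), within the fit of all treatments, 8 of the 12 counts of lower genes dropped by more than 1.5 times. The sums of these 8 lists were all lower in the 4 libraries of 2 d than in the 5. Fin fold genes summed to 569 to 669 CPM in the 4 and 1714 to 2732 CPM in the 5, notochord genes to 1814 to 2470 and 3742 to 5322 CPM, and myogenic genes to 557 to 704 and 1101 to 1638 CPM. Blood and vessel genes summed to 453 to 526 and 726 to 1092 CPM, otic and lateral line genes to 1072 to 1496 and 1808 to 2254 CPM, and neural crest and pigment genes to 1619 to 1886 and 2322 to 2491 CPM. Early germ layer genes summed to 405 to 488 and 594 to 708 CPM, and hedgehog genes to 709 to 950 and 1022 to 1188 CPM. What part this has in their changes with age was not tested beyond the fit with the library sets as a term and fits without the 4 libraries.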

How the data were processed

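Per the labels' protocols, stranded polyadenylated RNA libraries of pooled whole zebrafish were sequenced. Per the submitters' processing notes, the genome build was GRCz11 and the tools named are HTSeq 0.9.1, HISAT2 2.0.5, Picard, SAMtools 1.5, MultiQC 0.9 and FastQC 0.11.8. The annotation release and the strand setting of the counting are not given in the sources used here. Raw counts, as deposited, cover 32520 genes in 56 libraries, and the authors also gave a table of normalized signal for 32266 genes, in which each column is a count divided by a single factor, as its steps show. In all columns of the deposited signal but DMSO 64 d replicate 3, 100.0 percent of values were whole multiples of 1 step within 0.01, so reads were recovered from them.

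From the counts, CPM of column totals were computed, and genes were tested with edgeR 4.0.16 (R 4.3.3; filterByExpr with minimum count 10 and minimum total 15, TMM scaling, quasi-likelihood F test, Benjamini-Hochberg adjustment over all tested genes, threshold 0.05), in 1 fit of the 2 d libraries and 1 of the 2 and 8 d libraries. Folds against groups without a read were set against 3 reads over the group, and counting intervals are 95% exact Poisson intervals. Intervals and bounds cover counting error only. The test code was checked on simulated data. Symbols came from a supplied table and matched 29201 genes; of 420 listed symbols 388 matched.

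The members and the 12 gene lists were chosen with earlier results of these data known, and the 4 marker lists used to describe the library sets (apolipoprotein, skin, skeletal muscle and neuron) after their values were seen. Named genes are all members with a gene name, those in a list, those nearest each threshold, neighbours of members, and per list up to 3 lower and 2 higher genes with the smallest adjusted p, with fewer named where space required. Alternatives were RLE scaling, no filter, DESeq2 1.42.0, recovered reads, the replicate number as a block, other thresholds, libraries put back or left out, and the library sets as a term. Promoter and protein sequences were not used here. Some genes that passed a test are not reported here.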

Additional observations from a re-analysis of the deposited data

How the results depend on the processing

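Counts of genes passing in the 2 d comparisons were small and moved with the settings. EM against DMSO stayed at 0 under every setting except without the 4 libraries of the smaller set (753). E2 against DMSO gave 4 with DESeq2 and 1079 without those libraries. EM+E2 against DMSO gave 24 with DESeq2, 0 with recovered reads, 0 with the replicate block, 24 with the library sets as a term and 1970 without the 4 libraries. EM+E2 against EM gave 4 without a filter, 113 with DESeq2, 0 with recovered reads, 4 with E2 2 d replicate 1 put back, 1 with the replicate block, 41 with the library sets as a term and 2333 without the 4 libraries. Leaving out 1 library at a time gave 0 to 6 (E2 against DMSO; 6 without E2 replicate 3), 0 to 2 (EM+E2 against DMSO) and 0 to 3 (EM+E2 against EM; 0 without EM+E2 replicate 1 or 3). The cause was not tested, except that these fits without libraries rest on fewer samples. DESeq2 gave an adjusted p for 3 of the 7 members.

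Whether the replicate numbers pair the samples could not be told. Deviations of same-numbered 2 d libraries correlated at -0.724 to 0.713 over 9 pairs, 3 of them over 0.1. Outside EM+E2 the sign followed the library sets, and in groups of 2 the deviations mirror each other. With the replicate block 8 d against 2 d gave 11836 genes, and log2 fold changes of members changed sign in EM against DMSO for he1.1 (-0.32), zgc:174153 (-0.65), DAO (-1.71), ctslb.4 (-0.97), zgc:174855 (-0.55) and si:dkey-239j18.3 (-1.69), in E2 against DMSO for DAO (-2.91), and in EM+E2 against EM for zgc:174153 (2.65), ctslb.4 (2.92), zgc:174855 (1.87) and si:dkey-239j18.3 (3.07). Other sign changes were he1.1 in EM+E2 against EM with recovered reads (-0.42) and DAO in E2 against DMSO with E2 replicate 1 put back (-0.36). With the library sets as a term they were, in EM+E2 against DMSO, si:dkey-239j18.3 (-1.01), zgc:174153 (-0.32), ctslb.4 (-0.36), zgc:174855 (-0.84) and he1.2 (-0.27), in EM+E2 against EM DAO (-0.22) and he1.1 (-0.54), and in E2 against DMSO DAO (-0.35). Without the 4 libraries they were, in EM+E2 against DMSO, he1.1 (-0.09), he1.2 (-0.36), ctslb.4 (-0.30), si:dkey-239j18.3 (-0.73), zgc:174153 (-0.41) and zgc:174855 (-0.87), and in EM+E2 against EM he1.1 (-1.15) and DAO (-0.26). None of these changes passed the test except in the fits without the 4 libraries.

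Leaving out 1 library at a time, members whose log2 fold change took both signs were most of the 7. In EM against DMSO the ranges were he1.1 (-1.35 to 2.04), zgc:174153 (-2.44 to 4.41), DAO (-2.12 to 3.25), ctslb.4 (-2.79 to 3.84), zgc:174855 (-2.59 to 3.92) and si:dkey-239j18.3 (-3.56 to 4.46). In E2 against DMSO the ranges were he1.1 (-2.16 to 0.10), zgc:174153 (-2.40 to 1.79), DAO (-4.24 to 2.66), ctslb.4 (-2.84 to 0.98), zgc:174855 (-2.42 to 1.35) and si:dkey-239j18.3 (-3.36 to 2.00). In EM+E2 against DMSO the ranges were he1.1 (-0.10 to 2.15), zgc:174153 (-0.42 to 3.76), ctslb.4 (-0.30 to 3.52), zgc:174855 (-0.88 to 2.88), he1.2 (-0.37 to 0.66) and si:dkey-239j18.3 (-0.74 to 3.46). In EM+E2 against EM the ranges were he1.1 (-0.42 to 1.98), zgc:174153 (-1.22 to 2.94), ctslb.4 (-0.89 to 3.39), zgc:174855 (-1.61 to 2.60), he1.2 (-1.0 to 0.01) and si:dkey-239j18.3 (-1.57 to 3.74).

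From 2 to 8 d, the comparison of the DMSO groups only, within the fit of all treatments, gave 5749 genes. Its lower counts were 10 (hedgehog), 15 (neural crest and pigment), 10 (fin fold), 9 (notochord), 9 (otic and lateral line), 6 (blood and vessel), 3 (myogenic) and 5 (early germ layer). The other settings kept these counts within 1.5 times. The number of genes that meet the rule was 16 at 10 CPM and 4 at 40 CPM for 2 d, 15 at 2 CPM and 6 at 0.5 CPM for the later ages (without DAO), 10 without the 4 libraries, 7 in the normalized table, where another gene took the place of si:dkey-239j18.3, and 5 to 8 leaving out 1 library at a time.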

Other observations

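With a limit of 5 CPM in place of 1 at each later age, 35 genes were at 20 CPM or more at 2 d, the 7 members and 28 others. These others were singled out after their values were seen. Several are genes of the hairy and enhancer of split family. Among them HES6 went from 67.0 CPM at 2 d to 3.37 CPM at 8 d, her12 from 61.9 to 3.80 CPM, and her15.2 from 34.5 to 3.02 CPM. The gene atoh7, which starts the making of retinal ganglion cells, went from 39.5 to 1.83 CPM, and PTF1A, a transcription factor gene of pancreas and of inhibitory neurons, from 20.8 to 2.46 CPM. Of the 28 others, 8 were lower and 12 were higher in all 4 libraries of the smaller set than in all 5 of the larger, against 28.4 and 21.1 percent of all genes at 20 CPM or more at 2 d.

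Among these genes afp4 had 102 to 181 CPM in the 5 libraries and 0.217 to 2.22 CPM in the 4, and its mean was 75.8 CPM at 2 d, 0.0187 CPM at 8 d and 3.71 CPM at 16 d. The gene aep1 had 213 to 635 CPM in the 5 libraries, 15.7 to 109.9 CPM in the 4, and a mean of 237 CPM at 2 d and 1.68 CPM at 8 d.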
